A study of Elaeis guineensis with 38 samples.

Results

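H3K27me3 regions largely without H3K4me3 were examined in leaf chromatin of oil palm, Elaeis guineensis. The regions were chosen from deposited peak lists of chromatin immunoprecipitation with sequencing (ChIP-seq), in which DNA bound to a modified histone is captured with an antibody and sequenced. Overlapping peaks of all 19 lists, with 1 bp in common as the minimum, gave 5888 merged regions. A region was kept if it had a peak in at least 3 of the 5 H3K27me3 lists of normal palms and in at most 1 of their 5 H3K4me3 lists, and 205 regions met this rule. The choice therefore used peak presence in the normal palms, and values from those palms are a description. The lists of the mantled palms were not used by the rule except in the merging, where they set ends of regions and can join separate normal peaks. Merging the normal lists only gave 207 regions that met the rule.

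The series covers 10 clonal palms, all propagated from 1 ortet, or mother palm, and sampled at frond 0. The 5 normal palms (753, 758, 764, 767 and 768) bore normal fruit and the 5 mantled palms (673, 687, 754, 765 and 770) bore mantled fruit. Mantling is a floral abnormality of palms raised through tissue culture, with carpel-like organs in place of stamens. All palms had an H3K27me3 list, and all but palm 673 an H3K4me3 list used here, each called against input chromatin of the same palm. Every palm is of the same genotype, and the tissue is leaf, not the flower or fruit in which the phenotype shows. The files name no genes, so leaf marker genes were not examined, and genes, exons, promoters and DNA sequence at the regions were not analysed here.

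H3K27me3 is laid down by Polycomb repressive complex 2, whose catalytic subunits in Arabidopsis include CURLY LEAF and SWINGER. In plants it keeps developmental regulators silent in tissues where they are not used, among them floral MADS-box genes in Arabidopsis leaves. H3K4me3 marks the starts of genes that are being transcribed and is placed by Trithorax-group methyltransferases. In a mixed tissue both marks can be mapped to the same place, on the same or on different chromosome copies.

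Several libraries stood apart. Fragments kept ranged from 253624 to 10374962 in H3K27me3 and from 229258 to 7883375 in H3K4me3 libraries. As a reference for the other mark, 678 regions had H3K4me3 in at least 3 normal palms and H3K27me3 in at most 1. The H3K27me3 lists of normal palm 767 and of mantled palms 673 and 765 had a peak at 57.2%, 55.8% and 64.9% of these 678, against 0.295% to 23.9% in the other H3K27me3 lists. The mantled libraries labelled H3K4me3 had a peak at 1.62% (palm 687), 2.06% (palm 754), 96.8% (palm 765) and 3.69% (palm 770) of them. In normal palms, whose lists defined these 678, the H3K4me3 shares were 99.3% (753), 99.7% (758), 9.44% (764), 28.3% (767) and 93.4% (768), so that low shares were not limited to 1 library. Palm 754 was the only palm whose library labelled H3K4me3 covered far more of the 205 regions than its H3K27me3 library (91.7% against 12.2%), and the shares, their difference and the counts of regions by mark are also given without it. As palm 754 was picked out by these shares, nothing is read from the direction in which the difference then moves.

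In normal palms the 205 regions were carried mainly by the H3K27me3 lists of palms 753, 758 and 764. A peak was present at 84.9% of them in palm 753, 94.1% in palm 758, 96.1% in palm 764, 52.2% in palm 767 and 15.6% in palm 768. All of palms 753, 758 and 764 had a peak at 158 of the 205 regions, and palms 767 and 768 shared a peak at 19. Palm 768 thus lay close to its share over all 5888 regions, which was 12.1%. Exactly 3 lists were present at 129 regions, 4 at 64 and all 5 at 12. As the rule read these lists, no test is given. The number of regions meeting the rule was 104, 88 and 84 when the H3K27me3 lists of palms 753, 758 and 764 were left out in turn.

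H3K4me3 in the normal palms was concentrated in 1 list as well. No normal H3K4me3 peak was present at 70 of the 205 regions, and at 128 of the other 135 the single list was that of palm 758. That library had the most fragments of any H3K4me3 library, 7883375, and its list touched 52.9% of all 5888 regions. It touched 62.4% of the 205, whereas the lists of palms 753, 764, 767 and 768 touched 1.46%, 1.46%, 0% and 0.488%. Where palm 758 had an H3K4me3 peak on a region, the peak covered a median of 59.1% of its width. Of these 128 regions, 122 (95.3%) also had an H3K27me3 peak in the same palm. The H3K27me3 list of palm 758, which the rule used, held 94.1% of all 205, so the shared part was near that share. The median fold enrichment of these H3K4me3 peaks was 1.76, against 2.14 for the other peaks of the list. Fold enrichment is the authors' ratio of stacked fragments to local background at each peak. Within the limits set by the rule, the name of the set therefore describes the normal palms unevenly, with H3K27me3 at few of the regions in palm 768 and H3K4me3 at many of them in palm 758.

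**Figure D1:**
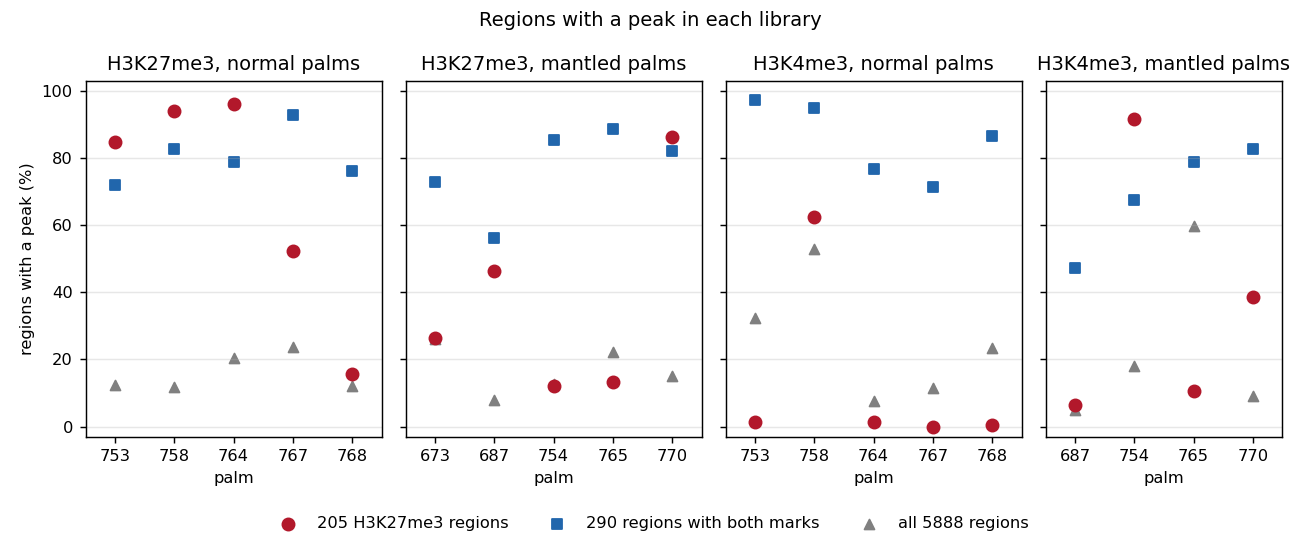
Percentage of regions with a peak (vertical axis) in each of the 19 libraries, by palm, with 1 panel for each mark and phenotype. Red circles are the 205 H3K27me3 regions, blue squares 290 regions with both marks in at least 3 normal palms each, and grey triangles all 5888 regions. Among mantled palms the red circles reach 86.3% in the H3K27me3 list of palm 770 and 91.7% in the list labelled H3K4me3 of palm 754.

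The lists of the mantled palms, which entered the rule only through the merging, were used to ask whether the same places carried H3K27me3 in other palms. A mantled H3K27me3 peak was present at 26.3% of the 205 regions in palm 673, 46.3% in palm 687, 12.2% in palm 754, 13.2% in palm 765 and 86.3% in palm 770. The mean was 36.9% ± 30.9 (SD, n = 5), and only palms 687 and 770 stood clearly above their shares over all 5888 regions, which were 7.90% and 15.2%. Palms 673, 754 and 765 touched 26.1%, 12.6% and 22.4% of all regions, so that their shares at the 205 were near or below that level. Palm 687 had the fewest fragments, 253624, and palm 673 the most, 10374962. Of the 95 regions with a peak in palm 687, 94.7% also had one in palm 770, against 86.3% of all 205, and these made up 50.8% of the 177 regions of palm 770. The lists of palms 673 and 687 shared 24 regions, 44.4% of the former and 25.3% of the latter, close to the 46.3% and 26.3% of all 205 that the other list of the pair held.

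By number of lists, 190 of the 205 regions had a mantled H3K27me3 peak in at least 1 palm, 128 in at least 2 and 43 in at least 3. The last is 21.0%, against 10.8% of all 5888 regions. No mantled H3K27me3 peak was present at 7.32% of the 205, against 55.3% of all regions. A peak in any 1 list makes a merged region, whereas the rule asked for at least 3 normal H3K27me3 lists. Both contrasts may therefore come from the rule, which was not tested. All 5 mantled lists were present at 4 regions (1.95%), near the 2.07% of all 5888 regions. The 290 regions with both marks in most normal palms had a mantled H3K27me3 peak in at least 3 lists at 85.2%, and in all 5 at 36.2%. The count in at least 3 lists was 36 of 205 when palm 754 was left out. It was 118 when the 2 marks of palm 754 were exchanged, a rise that follows from how that palm was picked. It was 26 without mantled palm 673, 18 without 687 and 16 without 770, with 4 lists then left. Other regions met the rule when a normal list was left out. The count was then 27 of 88 and 25 of 84 without the normal H3K27me3 lists of palms 758 and 764. It was 81 of 271 and 70 of 245 without the normal H3K4me3 lists of the same palms.

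The mean share of the 205 regions touched by mantled lists labelled H3K4me3 depended on palm 754. A peak was present at 6.34% in palm 687, 91.7% in palm 754, 10.7% in palm 765 and 38.5% in palm 770, with a mean of 36.8% ± 39.3 (SD, n = 4). Without palm 754 the means were 18.5% for H3K4me3 and 43.0% for H3K27me3. The value of palm 754 compares with 18.1% of all 5888 regions, and that of palm 765 lies far below the 59.6% of all regions that this large list touched. At least 1 mantled H3K4me3 list was present at 195 of the 205 regions (95.1%), against 75.4% of all regions. That gap may likewise come from the rule, which was not tested. For 95 of the 205, palm 754 was the only mantled H3K4me3 list, and 100 (48.8%) had a mantled H3K4me3 list outside palm 754. The mean difference, H3K27me3 minus H3K4me3, was 0.0488 percentage points. Leaving out palm 754 gave 24.5, and exchanging its 2 marks gave 35.8. Palm 754 was picked out by its shares at these same regions, so a rise in these settings follows from that choice. The difference was -12.3 without the H3K27me3 library of palm 770, and leaving out any of 5 libraries in all turned its sign.

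Compared within palms, the H3K27me3 list covered more of the 205 regions in 3 of 4 mantled palms. The difference from the H3K4me3 list was 40.0 percentage points in palm 687, 2.44 in palm 765 and 47.8 in palm 770, and it was -79.5 in palm 754. In palm 754 the library labelled H3K4me3 had a peak at 188 of the regions and the H3K27me3 library at 25, of which 21 were shared. In palm 770, 73 of the 79 regions with an H3K4me3 peak (92.4%) also had H3K27me3, which that palm had at 86.3% of all 205. In palm 765 the lists shared 2 regions, 9.09% of its 22 H3K4me3 regions and 7.41% of its 27 H3K27me3 regions, and over all 205 these lists held 13.2% (H3K27me3) and 10.7% (H3K4me3). In both palms the shared part was thus near the share of each list over all 205.

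**Figure D2:**
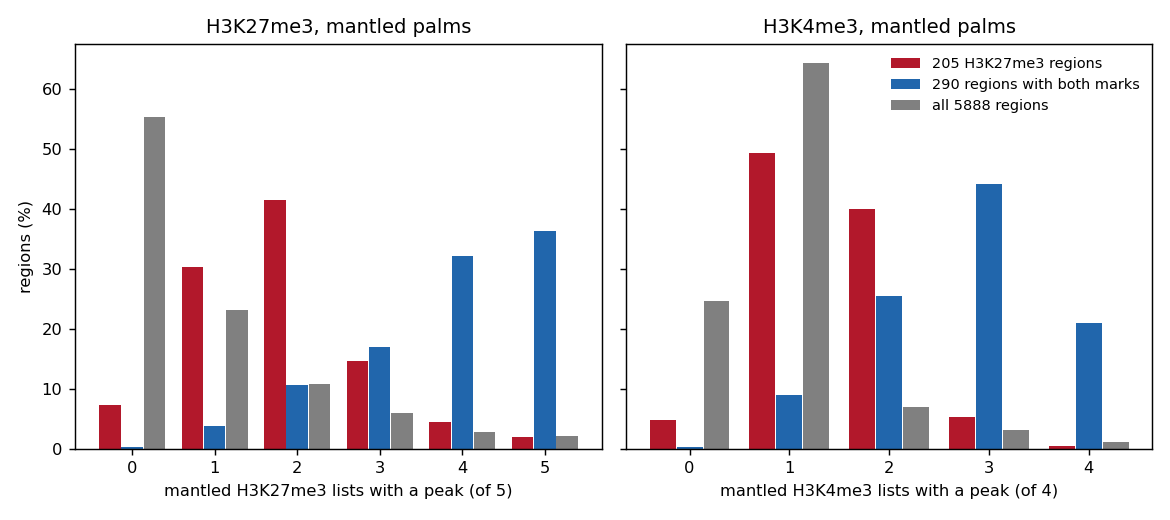
Percentage of regions (vertical axis) by the number of mantled lists with a peak, for H3K27me3 (5 lists, left) and H3K4me3 (4 lists, right). Red bars are the 205 H3K27me3 regions, blue bars 290 regions with both marks and grey bars all 5888 regions; the red bars are highest at 2 H3K27me3 lists (41.5%) and at 1 H3K4me3 list (49.3%).

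Each of the 5888 regions was tested for a difference between the marks in mantled palms with a two-sided Fisher's exact test of peak presence. After Benjamini-Hochberg adjustment over all regions, 0 passed Fisher's exact test (smallest adjusted p = 1). At an unadjusted p under 0.05, 3 regions (0.051%) leaned towards H3K27me3 and 0 towards H3K4me3, and none of the 205 was among them. The smallest unadjusted p among the 205 was 0.167, and the smallest that 5 against 4 lists allow is 0.00794. The adjustment over 5888 regions could thus be passed only if many regions reached that value together, and its outcome shows little. Among the 205 the count was 1 when palm 754 was left out and 10 when its marks were exchanged. The share over all 5888 regions is not given for these settings, and the palm was picked by its shares at the 205. Nothing is therefore read from either count.

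The study's own contrast, normal against mantled fruit, was run the same way for H3K27me3. No region passed the adjustment by Fisher's exact test. The smallest p that this test allows with 5 against 5 lists is 0.00794, so only many regions reaching it together could pass. At an unadjusted p under 0.05, 3 of the 5888 (0.051%) had more normal lists. Of these, 2 were among the 205, on p5.00_sc00001_p0394 from 276 to 729, with 5 normal and 1 mantled list, and on p5.00_sc01967_p0002 from 16022 to 17796, with 4 and 0. Since the rule asked for at least 3 normal lists, nothing is read from that direction. The spread within each phenotype was wide, from 15.6% to 96.1% of the 205 regions in normal and from 12.2% to 86.3% in mantled palms, and the phenotypes overlapped.

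The 205 regions were wider than most merged regions and had moderate enrichment. Their width ran from 277 to 5160 bp with a median of 832 bp, between a median of 473 bp for all regions and 1116 bp for the 290 with both marks. The 678 regions of the H3K4me3 reference set had a median of 928 bp. Since the rule asked for peaks in at least 3 lists, which merging joins, a width above that of all regions may come from the rule. That was not tested. The median fold enrichment over normal H3K27me3 lists ran from 1.42 to 7.78 between regions, with a median of 2.95. The corresponding median was 2.62 over all regions with a normal H3K27me3 peak and 2.17 at the regions with both marks. Local background is the level the caller expected from input at that place, plus the 1 that it adds before taking the ratio. It is given as a multiple of the average expected over the genome size set in the caller. As the 1 was not taken off, values overstate that multiple, most at low background and in lists with fewer fragments. Local background ran from 1.85 to 186 at the 205 regions with a median of 11.7. Its median was 63.3 at the regions with both marks and 11.8 over the 2614 regions with a normal H3K27me3 peak.

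Within a list, peaks on the 205 regions were the stronger ones in some palms and the weaker ones in others. In mantled H3K27me3 lists the median fold enrichment on the regions was 1.31 in palm 673, 3.85 in palm 687, 1.57 in palm 754, 1.77 in palm 765 and 2.98 in palm 770. For the other peaks of the same lists it was 1.45, 3.99, 1.9, 2.29 and 2.76 in that order. Only palm 770 had the higher median on the regions, and the median log2 ratio over the 5 lists was -0.14. Among peaks with a −log10 q of 5 or more the median log2 ratio was 0.27. Among mantled lists labelled H3K4me3, the medians on the regions and elsewhere were 5.26 and 3.85 in palm 754 and 3.28 and 2.71 in palm 770, against 3.13 and 4.02 in palm 687 and 1.80 and 4.19 in palm 765. Those are narrow peaks read at the summit, whereas H3K27me3 values are averages over broad peaks, so levels of the marks are not comparable.

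Within a list, local background on the regions was higher than elsewhere in some palms and lower in others. The 1 added by the caller weighs more in lists with fewer fragments, so levels are not compared between lists. It leaves the order of the medians within a list unchanged. Peaks on the regions had a median background of 58.9 in palm 673, 17.0 in palm 687, 56.8 in palm 754, 39.3 in palm 765 and 13.1 in palm 770. The other peaks of the same mantled H3K27me3 lists had 21.8, 14.7, 32.1, 16.7 and 18.3. Palm 770 was the only one of the 5 in which the regions had the lower background, as they did in normal palms 758 (11.3 against 30.2), 764 (12.3 against 31.3) and 768 (10.6 against 14.5). In palm 754 the list labelled H3K4me3 gave 12.9 on the regions and 15.6 elsewhere. It was 18.0 and 37.7 in the H3K4me3 list of palm 770. Lower background did not always go with higher enrichment: in normal palm 768 the medians of enrichment were 3.85 on the regions and 3.86 elsewhere, and in normal palm 753 they were 3.85 and 3.84 at backgrounds of 14.0 and 8.46. The part of local background in these results was not tested.

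**Figure D3:**
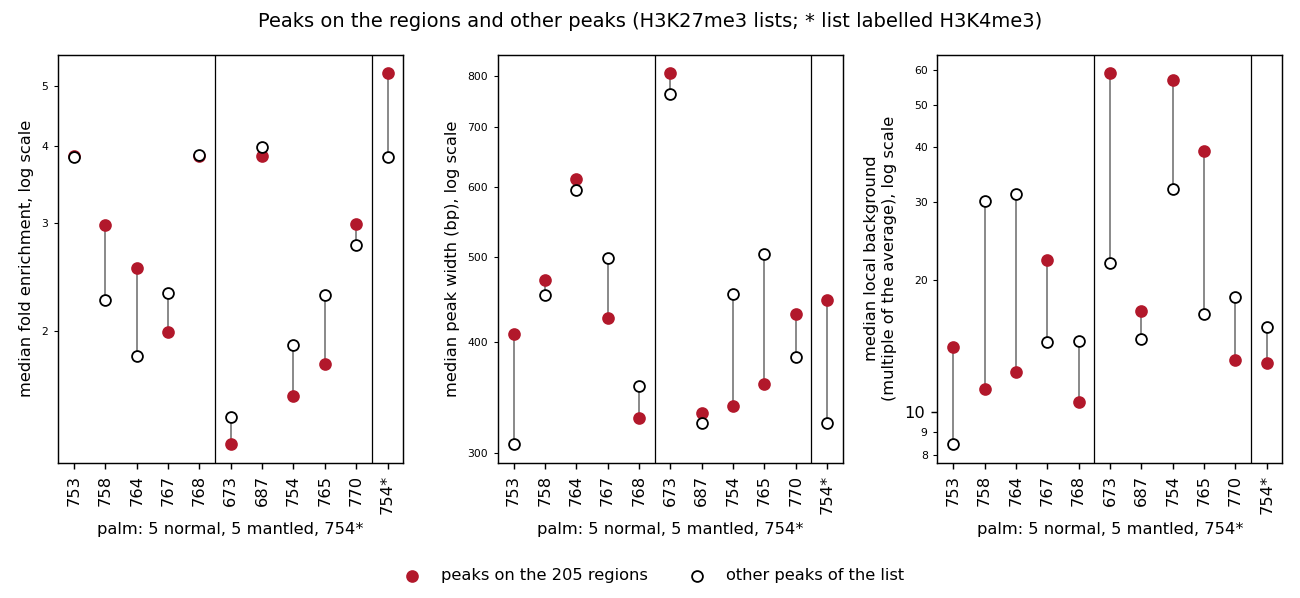
Median fold enrichment, width in bp and local background of peaks on the 205 regions (red) and of the other peaks of the same list (open), on log axes, for 10 H3K27me3 lists and for the list labelled H3K4me3 of palm 754 (marked with an asterisk). Grey lines join the medians of 1 list; fold enrichment is 5.26 against 3.85 in the marked list and 1.31 against 1.45 in palm 673.

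Enrichment and width varied with local background among the regions. Across the 205 regions, log2 background and log2 fold enrichment in normal H3K27me3 lists had r = -0.88, and log2 background and log2 width had r = 0.38. Both are descriptions over regions that share libraries, and background is the denominator of fold enrichment. In the lowest quartile (52 regions, background 1.85 to 4.59) the median width was 525 bp and the median enrichment 4.52. In the highest quartile (51 regions, 44.6 to 186) they were 1291 bp and 1.92. The 1 added by the caller weighs most in the lowest quartile, where backgrounds overstate the multiple of the average. Each background is a median over the normal lists with a peak, so it depends in part on which lists those were.

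Libraries differed in which quartile they reached. The H3K27me3 list of palm 673 had a peak at 0 of 52 regions in the lowest quartile, 3 of 51 in the second, 19 of 51 in the third and 32 of 51 in the highest. The H3K4me3 list of palm 765 went the same way, with 0, 2, 7 and 13 regions. That of palm 758 went the other way, with 41, 36, 31 and 20 regions. The list labelled H3K4me3 of palm 754 had 42, 49, 48 and 49, and the H3K27me3 list of palm 770 had 44, 47, 43 and 43, both high throughout.

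**Figure D4:**
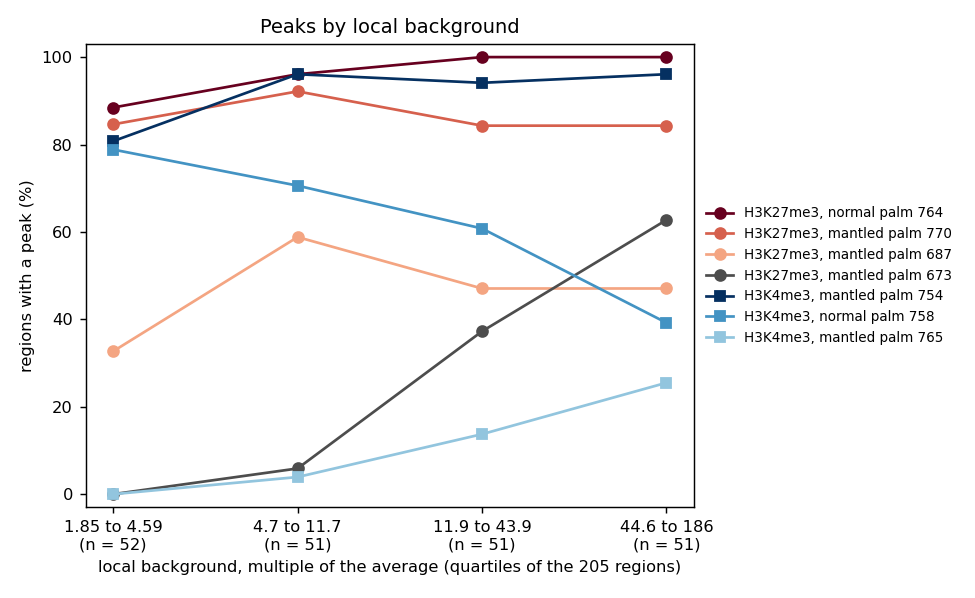
Percentage of regions with a peak (vertical axis) in 7 lists, over quartiles of the 205 regions by local background (horizontal axis, multiple of the average expected over the set genome size). The background includes the 1 that the caller adds. Circles are H3K27me3 and squares H3K4me3 lists; palm 673 runs from 0% to 62.7% and the H3K4me3 list of palm 758 from 78.8% to 39.2%.

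The order of enrichment among the regions was similar between the lists that carried them. Log2 fold enrichment of normal palms 758 and 764 had r = 0.91 (187 regions with a peak in both). Between palm 758 and mantled palm 770, both H3K27me3, r was 0.86 (171 regions). The list labelled H3K4me3 of palm 754 had r = 0.81 with the H3K27me3 list of palm 758 (181 regions) and r = 0.81 with that of palm 770 (170 regions). The H3K4me3 list of palm 770 had r = 0.91 with the H3K27me3 list of palm 758 (77 regions) and r = 0.80 with that of its own palm (73 regions). Palm 758's own H3K4me3 and H3K27me3 lists had r = 0.65 (122 regions). These are correlations across regions, which share the local background described above, and no test is attached.

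**Figure D5:**
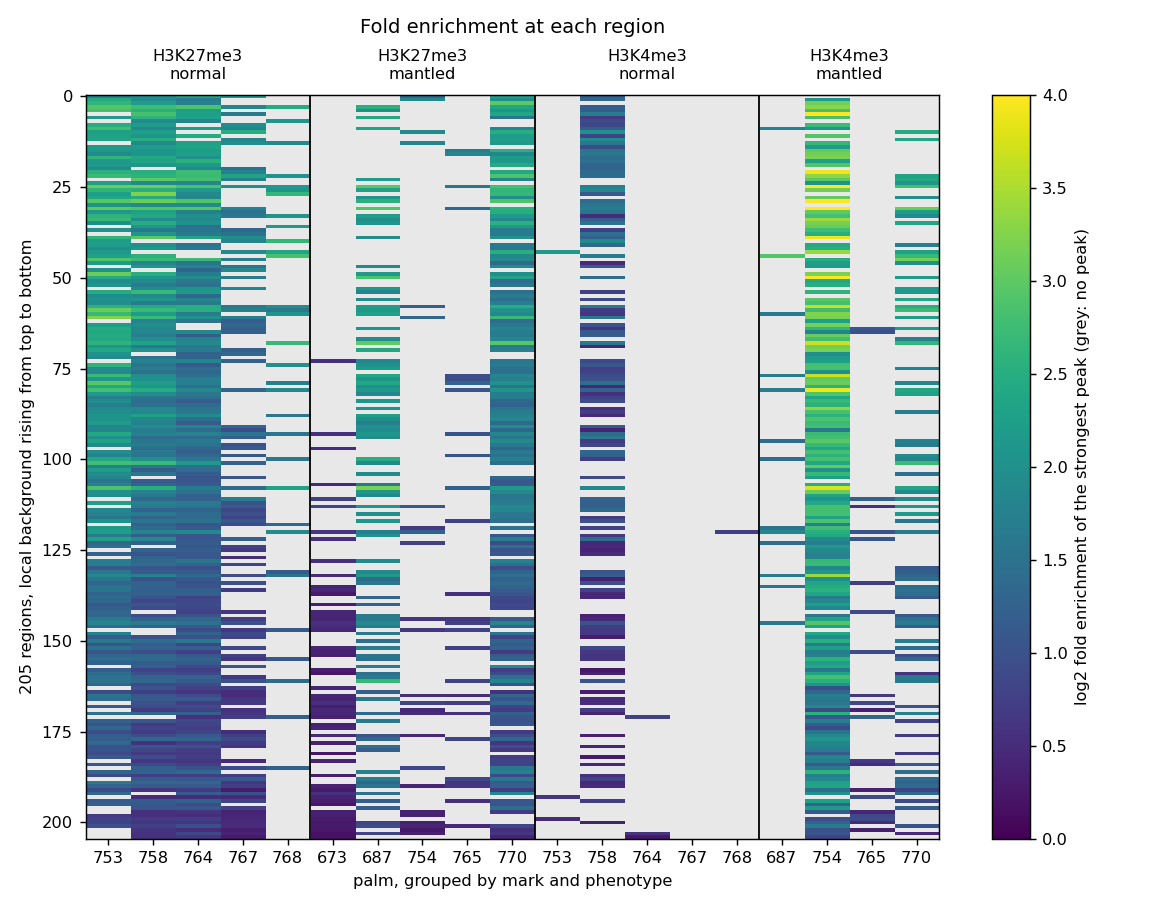
Log2 fold enrichment of the strongest peak (colour; grey where no peak is listed) at each of the 205 regions (rows, local background rising downwards) in the 19 libraries (columns, by mark and phenotype). Columns 753, 758, 764 and 770 of H3K27me3 and 754 of H3K4me3 are filled nearly throughout, and palm 673 is filled mainly in the lower rows, where its peaks reach 32 of 51 regions.

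The regions found in most mantled palms came first among those named. All 5 mantled H3K27me3 lists had a peak on p5.00_sc02650_p0001 from 377 to 3212, which also had H3K27me3 in 4 normal palms and no normal H3K4me3. Its fold enrichment was 1.97 in palm 753, 1.69 in 758, 1.95 in 764 and 1.41 in 767, and in mantled palms 1.22 in 673, 1.89 in 687, 1.33 in 754, 1.37 in 765 and 1.79 in 770. The ranges of the phenotypes overlapped, and local background there was 136. The other 3 regions with all 5 mantled lists were p5.00_sc00281_p0003 from 8241 to 8800, p5.00_sc00627_p0001 from 10424 to 11714 and p5.00_sc02265_p0003 from 33996 to 36165. Their median enrichments over 9 H3K27me3 lists were 2.16 ± 0.68, 2.19 ± 0.56 and 2.33 ± 0.58 (SD, n = 9), and the list labelled H3K4me3 of palm 754 gave 4.97, 5.07 and 5.90.

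Of the 9 regions with 4 mantled lists, the 4 touched by fewest H3K4me3 lists, with ties placed by mantled enrichment, are named. Among these, p5.00_sc00052_p0047 from 74063 to 75463 had H3K27me3 in all 5 normal palms as well. The values were 5.38 in palm 753, 3.34 in 758, 3.42 in 764, 2.97 in 767 and 2.96 in 768. In mantled palms they were 1.46 in 673, 4.30 in 687, 2.06 in 765 and 3.58 in 770. Palm 753 was the highest and palm 673 the lowest, and background was 10.5. The other named regions, p5.00_sc01146_p0001 from 11415 to 12558, p5.00_sc00167_p0001 from 23903 to 25514 and p5.00_sc00392_p0001 from 226 to 963, had medians of 1.64 ± 0.59, 2.34 ± 0.63 and 2.16 ± 0.42 (SD, n = 8) at backgrounds of 43.6 to 95.3. The 5 regions not named had medians between 1.48 and 2.99.

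No mantled H3K27me3 peak was present at 15 regions. Of these, 10 (66.7%) had a peak in the list labelled H3K4me3 of palm 754, against 91.7% of all 205. The 5 with the highest enrichment in normal palms all lay at a background of 2.03 to 3.98. On p5.00_sc01068_p0003 from 123 to 533 the values were 4.69 in palm 753, 3.53 in 767 and 6.26 in 768, with a fold enrichment of 3.72 for the H3K4me3 peak of palm 758. On p5.00_sc00101_p0067 from 8105 to 8593 they were 4.52 in palm 753, 4.63 in 758 and 5.04 in 764. Next were p5.00_sc00065_p0052 from 41 to 770, p5.00_sc00056_p0051 from 4760 to 5792 and p5.00_sc00001_p0666 from 8716 to 9125, with normal medians of 4.58 ± 0.88, 3.79 ± 0.36 and 3.78 ± 0.29 (SD, n = 3). The list labelled H3K4me3 of palm 754 gave 4.56 and 6.65 at the second and the third of these regions and no peak at the other three.

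Of the 205 regions, 3 had no H3K4me3 peak in any of the 9 H3K4me3 lists, and each had 3 normal H3K27me3 lists. The count was 42 without the list labelled H3K4me3 of palm 754, 10 without that of palm 758, 5 without that of palm 765 and 3 or 4 when any other list was left out. On p5.00_sc00053_p0056 from 12813 to 13787 the fold enrichment was 3.85 in palm 753, 3.74 in 758 and 2.56 in 764, and 3.24 in mantled palm 770. On p5.00_sc00456_p0009 from 1530 to 3326 it was 2.97, 2.18, 2.09 and 2.11 in the same palms. On p5.00_sc00032_p0072 from 11710 to 12553 it was 4.13 in palm 753, 2.48 in 764 and 3.74 in 767, with no mantled peak. At the first of these regions and at the second, palm 770 lay within the range of the normal palms.

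The opposite case was p5.00_sc01104_p0001 from 297 to 599, where all 4 mantled libraries labelled H3K4me3 had a peak. Its H3K4me3 fold enrichment was 3.53 in palm 687, 5.72 in 754, 2.05 in 765 and 3.14 in 770, against 1.66 in normal palm 768. H3K27me3 was present there in 4 normal and 3 mantled palms, at a median of 3.58 ± 1.04 (SD, n = 7). A further 11 regions were touched by 3 mantled H3K4me3 lists each, of which the 3 with the highest normal H3K27me3 enrichment are named. The other 8 had median H3K27me3 enrichments between 1.57 and 3.40. On p5.00_sc00159_p0001 from 18157 to 20806, with H3K27me3 in all 5 normal palms, the H3K4me3 values were 3.21 in palm 687, 15.1 in 754 and 5.24 in 770. On p5.00_sc01263_p0001 from 102 to 2659 and p5.00_sc00073_p0038 from 5340 to 6407 palm 754 was likewise the highest, at 6.13 and 7.07.

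Both of the widest regions had low enrichment. The region on p5.00_sc00802_p0002 from 13935 to 19094 spanned 5160 bp, with a fold enrichment of 1.52 in palm 758, 1.43 in 764 and 1.27 in 767, and 1.19 in mantled palm 673, 1.2 in 754 and 1.45 in 770. That on p5.00_sc00975_p0001 from 5719 to 9982 spanned 4264 bp, with 1.42 in palm 758, 1.43 in 764, 1.39 in 767 and 1.31 in mantled palm 673. Their backgrounds were 144 and 94.6. The next widest, p5.00_sc00501_p0002 from 6754 to 10612 and p5.00_sc00090_p0050 from 9404 to 12946, had medians of 2.06 ± 0.65 and 3.21 ± 0.78 (SD, n = 5) at backgrounds of 35.1 and 7.20. A merged region can join peaks of several lists, so that its width is an upper limit on that of a single peak. In mantled H3K27me3 lists the peaks on a region covered a median of 79.5% of its width in palm 673, 61.6% in 687, 48.8% in 754, 54.3% in 765 and 76.6% in 770.

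The 205 regions lay on 186 numbered scaffold pieces of 146 scaffolds. Scaffold p5.00_sc00001 held 12 of them, p5.00_sc00006 held 5 and p5.00_sc00066 held 4. The share of all merged regions on these scaffolds is not given here, so nothing is read from these counts. On p5.00_sc00001, the region p5.00_sc00001_p0394 from 276 to 729 had values of 6.56 in palm 753, 5.97 in 758, 6.65 in 764, 5.07 in 767 and 4.15 in 768. Mantled palm 770, at 7.37, was above all of these, and the other 4 mantled palms had no H3K27me3 peak there. The region p5.00_sc00001_p0216 from 40 to 585 had 6.13 in palm 753, 7.75 in 758, 5.07 in 764 and 3.88 in 767, and 3.98 and 4.11 in mantled palms 687 and 770. Its value in the list labelled H3K4me3 of palm 754 was 14.9. On p5.00_sc00001_p0651, regions from 4389 to 6757 and from 8450 to 10422 lay 1692 bp apart, and both were marked in palms 753, 758, 764, 767, 687 and 770. In contrast, p5.00_sc00001_p0281 from 4406 to 4978 was marked in palms 764, 767 and 768 and in mantled palms 673, 754 and 765, at 1.89, 1.57, 2.15, 1.35, 1.57 and 1.75, and not in the list labelled H3K4me3 of palm 754. Over all 12 regions of this scaffold the median enrichment in normal palms ran from 1.89 to 5.97. It ran from 1.61 to 5.04 on p5.00_sc00006 and from 2.08 to 3.46 on p5.00_sc00066.

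Neighbouring regions were uncommon but often adjacent. A piece held at most 2 of the 205 regions, and 19 pieces held 2. The gap between them ran from 1148 to 29645 bp with a median of 3509 bp, and no other merged region lay between them on 17 of the 19 pieces. As the 5888 merged regions lay on 3798 pieces, a piece held few on average, and nothing is read from that count. A region of the H3K4me3 reference set lay on the same piece for 12 of the 205 (5.85%), at 1199 to 25917 bp, against 13.1% for the regions with both marks. The share over all regions is not given here, so nothing is read from the 5.85%. The first 500 bp of a piece held the start of 44 of the 205 regions (21.5%), against 15.7% of all regions and 40.4% of those in the lowest quartile of background. The length of the pieces was not known, so positions relative to their far ends were not examined.

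Just outside the rule, 175 regions had H3K27me3 in exactly 2 normal lists and H3K4me3 in 0 or 1. Their median enrichment was 2.35, against 2.97 at the 129 regions with exactly 3 lists, and the H3K27me3 list of palm 770 touched 41.7% of them against 82.2%. On the other limit, 74 regions had H3K27me3 in at least 3 and H3K4me3 in exactly 2 normal lists. The H3K27me3 list of mantled palm 765 touched 60.8% of those, against 17.8% of the 135 regions with exactly 1 H3K4me3 list. For the list labelled H3K4me3 of palm 754 the shares were 89.2% and 91.9%. These values are given without a test.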

How the data were processed

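ChIP-seq peak lists of 19 libraries were used, 10 for H3K27me3 and 9 for H3K4me3. Bowtie2 2.2.5 and SAMtools 1.9 are listed in the submitters' processing notes, with no role given. MACS2 2.1.1.20160309 was run for each library against its own input, per the file headers, in narrow mode for H3K4me3 and broad mode for H3K27me3. The headers give a cutoff of 0.05 on q, an effective genome of 221 Mb and at most 1 fragment per position. The deposited pileup column is signal (fragments stacked at a place), the deposited fold enrichment column holds a ratio over local background, and the deposited p and q columns are −log10 values, per the file headers. Positions are 1-based, as in the files, whose genome build is not given in the sources used here.

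Local background was (pileup + 1) divided by fold enrichment, as a multiple of fragments times fragment length over genome size. It includes the 1 that the caller adds to the background, which was not taken off. A region's enrichment in a list is that of its strongest peak. Regions were tested with two-sided Fisher's exact tests (scipy 1.17.1) adjusted by Benjamini-Hochberg over 5888 regions; merging and tests were tested on simulated data. Groups come from the labels, each palm being a separate plant. The labels give both marks of a palm the same number, which pairs them; deviations of the share of the 205 regions from group means had r = 0.086 over 9 palms.

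The rule and lists were chosen with earlier results of these data known. Named regions are those in most mantled H3K27me3 lists (8), in fewest (5), with no H3K4me3 list, the widest (4), those on the 3 scaffolds with most members, and those in most mantled H3K4me3 lists (4, with ties placed by normal H3K27me3 enrichment). Alternatives changed peak thresholds, overlap, merging, the limits of the rule and the libraries.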

Additional observations from a re-analysis of the deposited data

Results flagged for a closer look

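Among mantled libraries, 18 groups of values were examined, and 3 had a highest sample set apart from the others by more than the 95% limit of Dixon's test; chance flags about 1 in 20 groups. Normal palms were not examined in this way, since the regions were chosen from their lists. Median peak width on the 205 regions was 806 bp in palm 673 among mantled H3K27me3 lists, and this library had the most fragments. It was 446 bp in palm 754 among mantled lists labelled H3K4me3. At p5.00_sc01146_p0001 from 11415 to 12558, fold enrichment was 2.50 in palm 770, the highest of the 4 mantled H3K27me3 lists with a peak there.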

How the results depend on the processing

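The number of regions depended on the rule. It was 205 as reported, 101 when fold enrichment had to reach 3, 87 when −log10 q had to reach 5, 70 with 0 normal H3K4me3 lists and 76 with at least 4 normal H3K27me3 lists. It ran from 84 to 271 with 1 normal library left out, and was 104, 88 and 84 without the H3K27me3 lists of palms 753, 758 and 764. The mean mantled H3K27me3 share ran from 24.5% to 44.2% and the H3K4me3 share from 18.5% to 47.0% with 1 library left out.

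The difference of the mantled shares changed sign, to -6.53, -5.75 and -2.14 percentage points, under the enrichment, q and 0-list settings. With 1 library left out it ran from -12.3 to 18.3, negative without H3K27me3 palms 767 (-0.0915), 687 (-2.32) and 770 (-12.3) and without H3K4me3 palms 687 (-10.1) and 765 (-8.65). It was 35.8 with the marks of palm 754 exchanged, a palm picked out by its shares at these regions. As a paired value with palms as replicate block it was 2.68 ± 58.3 (SD, n = 4), and by region the replicate block left 0 of the 205 under an unadjusted p of 0.05, since 4 pairs allow no p below 0.125. That count was 1 without palm 754 and 10 with its marks exchanged, and 0 whichever mantled library was left out.

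The count in at least 3 mantled H3K27me3 lists is given here with the number of regions that met the rule in each setting. It was 8 of 101, 14 of 87, 9 of 70 and 25 of 76 under the enrichment, q, 0-list and 4-list settings. It was 118 of 205 with the marks of palm 754 exchanged, and ran from 16 of 205 to 81 of 271 with 1 library left out. For this count the alternatives were chosen after seeing the data. It was 27 of 88 and 25 of 84 without normal H3K27me3 palms 758 and 764. Without normal H3K4me3 palms 758 and 764 it was 81 of 271 and 70 of 245.

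In mantled H3K27me3 lists the median log2 ratio of fold enrichment (-0.14) was 0.27 when −log10 q had to reach 5, and ran from -0.21 to -0.10 with 1 list left out. That of width (0.04) was 0.51 when fold enrichment had to reach 3, -0.12 at that q, and -0.19 to 0.058 with 1 list left out. That of local background (0.82) was -0.78 at that q and 0.52 to 1.03 with 1 list left out. Background includes the 1 added by the caller, which makes each such ratio smaller in size. The cause of these changes was not tested. A place without a peak in a list is not shown to lack the mark. Share and depth had no common order in H3K27me3, with 46.3% of the 205 regions at 253624 fragments and 26.3% at 10374962; the part of depth was not tested.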
